A study of Mus musculus with 6 samples.

Results

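Tmem176a and Tmem176b, a pair of neighbouring mouse genes, and 6 myeloid members of the related MS4A family (Ms4a4a, Ms4a4c, Ms4a6b, Ms4a6c, Ms4a6d and Ms4a7) were followed across Tet2-/- and wild-type macrophages. The pair was chosen by its measured log2 values, which were higher on some of the Tet2-/- arrays described here, so its genotype difference is given as a description without a test. The Ms4a genes were chosen as structural relatives, and their differences were tested. All 8 genes were found, each with 1 probe set, among 25206 probe sets of which 23185 carry a gene name.

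The Tet2-/- group held 3 arrays, from peritoneal macrophages of C57BL/6J mice lacking Tet2, an enzyme that oxidises methylated cytosine in DNA. The wild-type group held 3 arrays from littermates of the same strain. In both groups the cells had been drawn out by a thioglycollate irritant given 4 days earlier, were plated with no further agent, and gave up their RNA after 10 h in culture. The titles call the arrays of each genotype biological replicates 4, 5 and 6 and do not say whether each came from its own mouse, so p-values cover the spread among these 6 samples. The sources used here give neither the mice's ages nor the deleted part of Tet2.

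For 4 of the 6 samples the title and the genotype characteristic name opposite genotypes. Groups follow the title, under which each genotype holds replicates 4, 5 and 6 once, and every direction below refers to the arrays so labelled. The targeted gene did not settle the matter: Tet2 was at 3.80, 4.05 and 3.67 on the Tet2-/- arrays, against 4.35, 3.74 and 3.79 on the wild-type arrays, on the log2 scale, with overlapping groups. Array medians lay between 2.77 and 2.93. The Tet2-/- replicate 6 array had the highest median, the narrowest interquartile range (2.99, against 3.16 to 3.33 on the other 5) and the lowest mean correlation with the others (0.982, against 0.986 to 0.989), and results are therefore also given without it. None of the 7 measured macrophage markers, among them Adgre1, Csf1r and Cd68, was below the array median on all arrays (0 of 7), and their mean log2 level was 8.49 to 9.26 on the Tet2-/- arrays and 8.74 to 9.09 on the wild-type arrays.

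MS4A proteins cross the membrane several times and sit in the plasma membrane or in vesicles, where they act as adaptors or channel-like partners of receptors. The best known is the B-cell antigen CD20, encoded by Ms4a1, and several others are made mainly by monocytes and macrophages. TMEM176A and TMEM176B share this membrane layout. They reside in intracellular membranes, have been described as cation channels, and in mouse dendritic cells TMEM176B takes part in antigen presentation, while in mouse myeloid cells it has been reported to restrain the inflammasome.

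The genes lie in compact groups in the mouse genome. The pair lies on chromosome 6. On chromosome 19, 21 Ms4a genes sit in a block of 22 protein-coding genes in the RefSeq annotation of assembly GRCm38.p6. Start-site windows of 300 bases (250 before and 50 after each annotated start) were found in the RefSeq table for 7 of the 8 members, 11 windows in all, and not for Ms4a6d. The windows of the pair are shown because both genes start, facing away from each other, from the same stretch of DNA: of 2 windows of Tmem176a and 3 of Tmem176b, those that overlap most have starts 282 bases apart and share 219 bases, read on opposite strands. They lie at chr6:48841406-48841705 on the plus strand (Tmem176a) and chr6:48841325-48841624 on the minus strand (Tmem176b), and capitals mark the shared bases.
Tmem176a: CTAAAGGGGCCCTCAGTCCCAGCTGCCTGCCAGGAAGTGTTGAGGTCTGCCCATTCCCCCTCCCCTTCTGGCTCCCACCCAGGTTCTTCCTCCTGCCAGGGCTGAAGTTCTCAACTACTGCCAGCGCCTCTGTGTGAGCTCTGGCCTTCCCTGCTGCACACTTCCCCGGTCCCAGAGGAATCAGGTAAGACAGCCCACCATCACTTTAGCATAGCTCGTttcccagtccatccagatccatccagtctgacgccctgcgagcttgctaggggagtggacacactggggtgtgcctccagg
Tmem176b: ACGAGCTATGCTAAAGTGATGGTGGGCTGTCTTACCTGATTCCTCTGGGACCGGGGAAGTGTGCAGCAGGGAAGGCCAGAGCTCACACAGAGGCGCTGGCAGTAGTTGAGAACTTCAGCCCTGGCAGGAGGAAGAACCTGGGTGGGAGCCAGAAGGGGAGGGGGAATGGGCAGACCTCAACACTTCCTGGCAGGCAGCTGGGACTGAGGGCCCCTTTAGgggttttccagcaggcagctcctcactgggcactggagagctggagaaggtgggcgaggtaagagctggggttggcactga

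Ms4a6c and Ms4a6b are shown because much of their start regions matched, and their array values are given below. Their windows, chr19:11469118-11469417 and chr19:11518309-11518608, both on the plus strand, were identical at 189 of 220 aligned bases (85.9%), and capitals mark their longest shared run, of 48 bases.
Ms4a6c: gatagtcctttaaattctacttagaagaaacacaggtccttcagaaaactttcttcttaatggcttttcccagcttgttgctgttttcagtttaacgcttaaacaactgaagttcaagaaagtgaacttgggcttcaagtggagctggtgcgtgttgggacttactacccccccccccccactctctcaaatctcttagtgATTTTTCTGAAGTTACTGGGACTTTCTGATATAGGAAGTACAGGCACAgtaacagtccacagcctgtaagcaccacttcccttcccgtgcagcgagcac
Ms4a6b: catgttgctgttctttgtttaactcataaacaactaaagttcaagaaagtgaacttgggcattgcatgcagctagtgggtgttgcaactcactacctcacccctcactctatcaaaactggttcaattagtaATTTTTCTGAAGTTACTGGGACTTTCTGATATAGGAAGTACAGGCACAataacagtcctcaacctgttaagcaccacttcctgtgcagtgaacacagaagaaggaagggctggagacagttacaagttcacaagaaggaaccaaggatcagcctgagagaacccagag

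All 11 start-site windows held fewer CG dinucleotides than the median window, CG being the sequence at which cytosine is mostly methylated. The 5 windows of the pair held 1 to 5 CG, and the 6 windows of the Ms4a genes 0 to 6, against a median of 7 (quartiles 3 and 20) over 32817 windows of the same length. Those of Ms4a6b and Ms4a4c held 0 and that of Ms4a6c held 4. GAGGAAGT, a form of the site bound by the myeloid factor PU.1, was searched on both strands and occurred in 0 of the 11 windows and in 3.20% of all windows. At that share, 0 of 11 does not show that sites for PU.1 are lacking. Only this exact form was counted. The shorter AGGAAGT, read on either strand, is present in the printed windows of Tmem176a, Tmem176b, Ms4a6c and Ms4a6b, and its share over all windows was not counted. CG methylation was not measured on these arrays.

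Tmem176b and Tmem176a were both higher on the Tet2-/- arrays, by an amount that rested on replicates 4 and 5. The pair was chosen for high values on some Tet2-/- arrays, so this split among replicates came with the choice. The same holds for the larger differences without replicate 6 given below. Tmem176b was at 7.62, 7.74 and 6.21 on Tet2-/- replicates 4, 5 and 6, against 6.17, 6.01 and 5.91 on wild-type replicates 4, 5 and 6 (log2 expression). The first 2 Tet2-/- values stand well above the rest, and replicate 6 exceeded the highest wild-type array by only 0.04. The group means were 7.19 ± 0.851 and 6.03 ± 0.131 (SD, n = 3 each) in Tet2-/- and wild-type cells, a log2 difference of 1.16 (2.24-fold), or 1.65 (3.14-fold) without Tet2-/- replicate 6.

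Tmem176a was at 6.36, 6.30 and 5.17 on the Tet2-/- arrays, against 5.01, 4.78 and 4.90 on the wild-type arrays. Again replicates 4 and 5 were high and replicate 6 lay just above the wild-type values, here by 0.16. Means were 5.94 ± 0.670 and 4.90 ± 0.115 (SD, n = 3 each) in Tet2-/- and wild-type cells, a difference of 1.05 (2.07-fold) with all arrays and 1.43 (2.70-fold) without Tet2-/- replicate 6. For both genes the groups did not overlap, which held for 3.28% of named probe sets in this direction. That share is given for scale, since this contrast chose the pair. Under the genotype characteristic in place of the title, the differences were -0.19 for Tmem176a and -0.11 for Tmem176b.

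The pair had nearly the same profile. With each gene centred on its own mean over the 6 arrays, the log2 profiles of Tmem176a and Tmem176b were never more than 0.25 apart, while each spanned over 1 log2 unit (1.58 for Tmem176a and 1.83 for Tmem176b). The root-mean-square distance between the profiles was 0.144, and among 23185 named genes only 1 lay nearer to each of them. Both genes were chosen by their values on these same arrays, so some likeness was built in, and the distance is a description only.

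**Figure D1:**
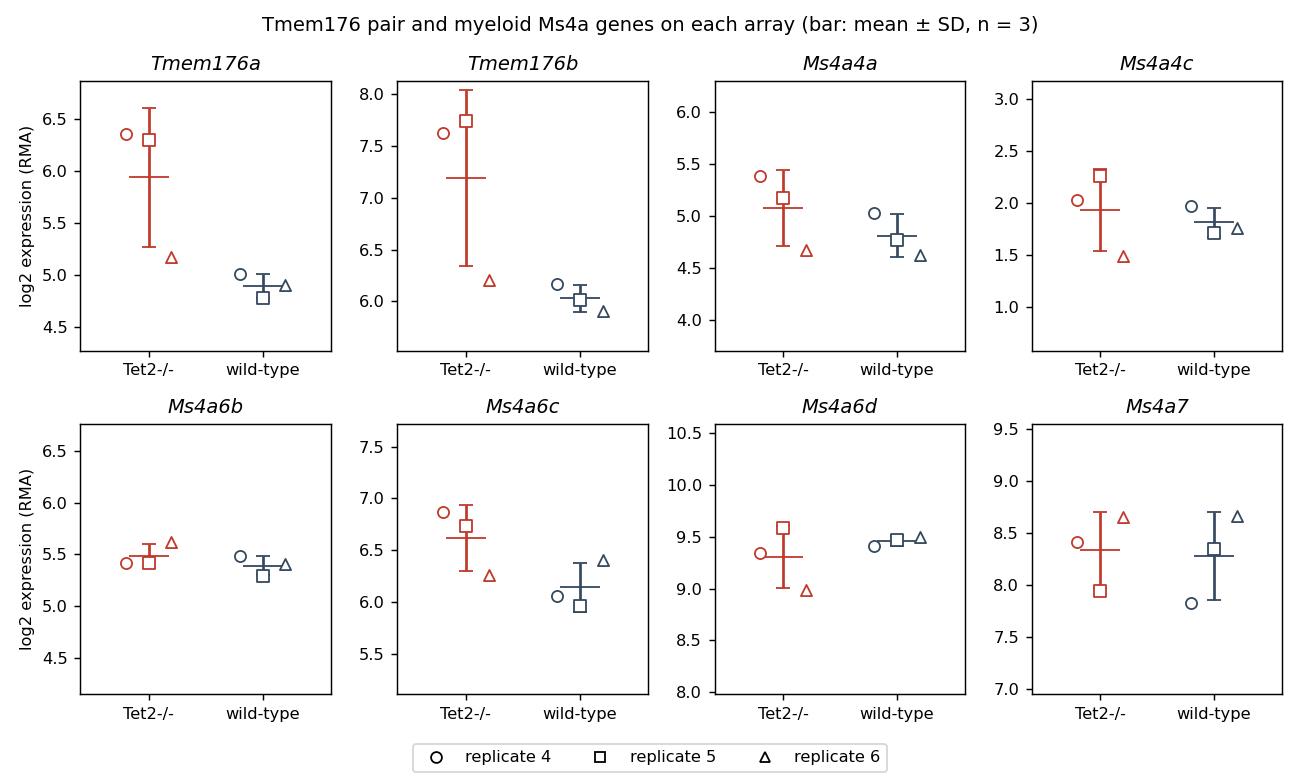
Log2 expression (RMA) of each of the 8 genes on each array, Tet2-/- left and wild-type right, with circles, squares and triangles for replicates 4, 5 and 6 and bars for the mean ± SD (n = 3); each panel spans the same number of log2 units. Tmem176a and Tmem176b are high on Tet2-/- replicates 4 and 5, with replicate 6 0.16 and 0.04 above the highest wild-type array, and all 6 Ms4a genes overlap between the groups.

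None of the 6 Ms4a genes passed the test, and in each of them the groups overlapped (among named probe sets, 3.28% had all Tet2-/- arrays above and 4.08% all below the wild-type arrays). By limma's moderated test over all probe sets, 0 of the 6 passed an adjusted p of 0.05, where 0 of 25206 probe sets (0%) did so, the smallest adjusted p being 0.197. At an unadjusted p under 0.05 there was 1 of the 6, Ms4a6c, beside 910 of all probe sets (3.61%). The adjusted p was 0.998 for each of the 6 genes. Their median difference was 0.10 and that of all probe sets 0.00, with 5 positive and 1 negative.

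Ms4a6c had the largest difference among them. Its log2 level was 6.87, 6.73 and 6.26 on Tet2-/- replicates 4, 5 and 6, against 6.06, 5.96 and 6.41 on wild-type replicates 4, 5 and 6. Tet2-/- replicates 4 and 5 were the highest of the 6 arrays, and replicate 6 lay below wild-type replicate 6. The means were 6.62 ± 0.320 in Tet2-/- and 6.14 ± 0.236 in wild-type cells (SD, n = 3 each) and differed by 0.48 ± 0.194 (standard error, 95% confidence interval 0.04 to 0.92, 1.39-fold, limma unadjusted p = 0.0368). Without Tet2-/- replicate 6 the difference was 0.66 and still did not pass (limma adjusted p = 0.267).

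Ms4a6b, whose start region matches much of that of Ms4a6c, was nearly level. It was at 5.42, 5.42 and 5.62 on the Tet2-/- arrays, against 5.48, 5.29 and 5.41 on the wild-type arrays. Here the highest value was on Tet2-/- replicate 6, the array that was lowest of its group for the pair and for Ms4a6c. The difference was 0.09 (95% confidence interval -0.21 to 0.39), and 0.03 without that array. Whether the difference between the 2 genes exceeds the error was not tested. Whether probes of one gene also bind transcripts of the other was not tested, since the probe positions were not used here.

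Ms4a4a, a surface protein of macrophages that associates with the beta-glucan receptor Dectin-1, was also highest on Tet2-/- replicates 4 and 5, by less than the pair. Its level was 5.38, 5.17 and 4.67 on the Tet2-/- arrays, against 5.03, 4.77 and 4.62 on the wild-type arrays. The top 2 values were again Tet2-/- replicates 4 and 5, with replicate 6 among the wild-type values. It differed by 0.27 (95% confidence interval -0.19 to 0.72), and by 0.47 without Tet2-/- replicate 6 (limma adjusted p = 0.424). Dropping Tet2-/- replicate 4 in its place left 0.11.

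Ms4a4c lay below the array median on all 6 arrays, where RMA compresses differences. It was at 2.03, 2.26 and 1.49 on the Tet2-/- arrays, against 1.97, 1.71 and 1.76 on the wild-type arrays. Tet2-/- replicates 5 and 4 were the highest of the 6 arrays, and Tet2-/- replicate 6 was the lowest. The difference was 0.11 (95% confidence interval -0.34 to 0.57). It was 0.33 without Tet2-/- replicate 6 (limma adjusted p = 0.506) and -0.05 without Tet2-/- replicate 5.

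Ms4a6d and Ms4a7, genes of mature macrophages, did not share the pattern of the pair. Ms4a6d, whose product has been reported in mouse macrophages to act with Vsig4 in restraining the Nlrp3 inflammasome, was at 9.34, 9.58 and 8.99 on the Tet2-/- arrays, against 9.41, 9.47 and 9.50 on the wild-type arrays. The wild-type values were tightly grouped, and the Tet2-/- arrays lay on both sides of them, replicate 5 above, replicate 4 slightly below and replicate 6 far below. The means were 9.30 ± 0.297 in Tet2-/- and 9.46 ± 0.0458 in wild-type cells (SD, n = 3 each), and the difference of -0.16 (95% confidence interval -0.53 to 0.22) became 0.00 without that array. Ms4a7, which marks border macrophages of the mouse brain, was at 8.41, 7.94 and 8.66 on the Tet2-/- arrays, against 7.83, 8.35 and 8.67 on the wild-type arrays. Both groups spread over most of the same range, and the difference of 0.05 (95% confidence interval -0.51 to 0.61) was -0.17 without wild-type replicate 4 and 0.25 without Tet2-/- replicate 5.

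The distance between profiles describes the same 6 values in a single number. Ms4a6c was the Ms4a member nearest to both genes of the pair, at 0.378 from Tmem176a and 0.506 from Tmem176b, followed by Ms4a4a (0.444 and 0.542) and Ms4a4c (0.504 and 0.592). Ms4a7 was the farthest, at 0.803 and 0.929. Among named genes ordered by nearness to Tmem176a and to Tmem176b, Ms4a6c ranked 158 and 308. Ms4a4a ranked 395 and 472, Ms4a4c 1055 and 952, and Ms4a7 20233 and 20875. The distance is not scaled by span, so a nearly flat gene can lie nearer to the pair than a variable gene of another shape. The distances are root-mean-square log2 differences over the 6 arrays, and every gene shares the same arrays and normalization.

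The named genes with profiles closest to the pair were outside the MS4A family. For Tmem176a these were F11r, the junctional adhesion molecule A (distance 0.076), Ltc4s, leukotriene C4 synthase (0.160), and Cd81, a tetraspanin (0.162). For Tmem176b they were Cd244a, a receptor of the SLAM family (0.113), Icam2, an adhesion molecule (0.146), and Lbp, the lipopolysaccharide-binding protein (0.171). F11r was at 6.65, 6.58 and 5.43 on the Tet2-/- arrays, against 5.34, 5.10 and 5.39 on the wild-type arrays. Icam2, which is also one of the resident macrophage markers described below, was at 6.70, 6.64 and 5.02 on the Tet2-/- arrays, against 5.36, 5.09 and 4.72 on the wild-type arrays. Tet2-/- replicate 6 lay just above the wild-type arrays for F11r and among them for Icam2. The distances are a description over 6 arrays.

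**Figure D2:**
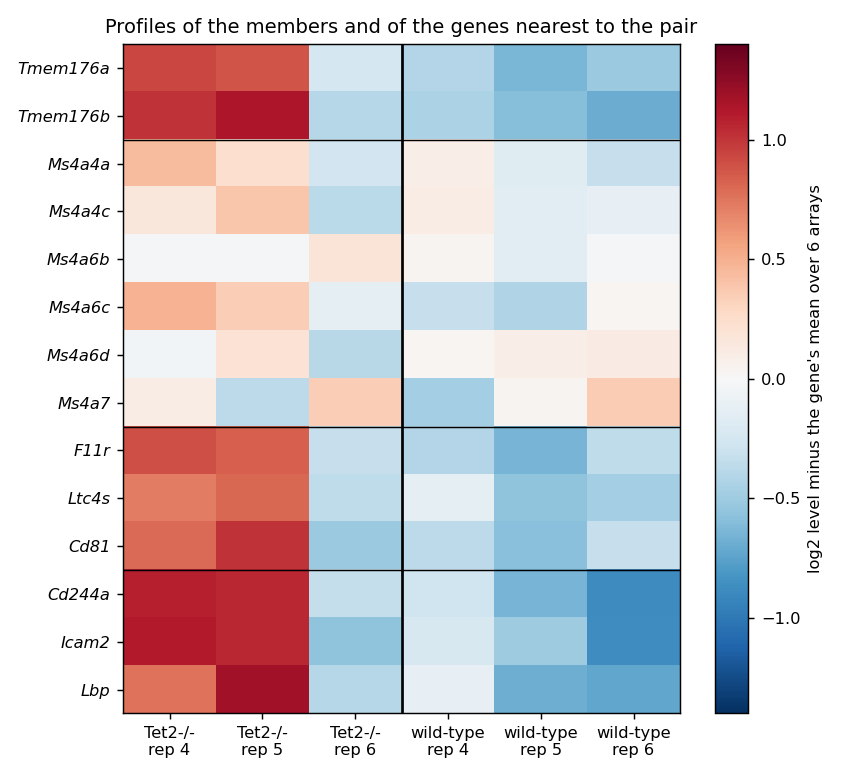
Heat map of log2 level minus each gene's mean over the 6 arrays, with the Tmem176 pair on top, then the 6 Ms4a genes, then the 3 named genes nearest to Tmem176a and the 3 nearest to Tmem176b; columns are the Tet2-/- arrays, left, and the wild-type arrays, right. The pair and its nearest genes are high on Tet2-/- replicates 4 and 5 and low on the other 4 arrays. That pattern is faint in Ms4a6c and Ms4a4a and not visible in Ms4a6b, Ms4a6d or Ms4a7. In Ms4a4c Tet2-/- replicates 5 and 4 are also the highest, but replicate 4 is close to wild-type replicate 4.

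The other 12 MS4A genes of the fixed list were all measured, and 0 passed limma's adjusted p of 0.05. At an unadjusted p under 0.05 there was 1, Ms4a1, beside 3.61% of all probe sets. The list held 7 positive and 5 negative differences with a median of 0.03. In none of the 20 Ms4a genes on the array were the groups apart, though many of them were dim, as given below. Among named probe sets, 3.28% had all Tet2-/- arrays above and 4.08% all below the wild-type arrays. Ms4a1, which encodes CD20, was at 2.84, 4.21 and 2.18 on the Tet2-/- arrays, against 2.26, 2.06 and 1.71 on the wild-type arrays, with Tet2-/- replicate 5 far above the rest. It differed by 1.07 (95% confidence interval 0.09 to 2.04, limma adjusted p = 0.998). Ms4a8a was at 7.11, 7.06 and 6.41 on the Tet2-/- arrays, against 6.75, 6.51 and 6.59 on the wild-type arrays. As for Ms4a4a, Tet2-/- replicates 4 and 5 were on top, and replicate 6 was the lowest of all, and its difference was 0.24, or 0.47 without replicate 6 (limma adjusted p = 0.344).

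For the remaining 10 listed MS4A genes the differences lay between -0.14 and 0.19. Of the 12 on the list, 8 lay below the array median on all 6 arrays, where RMA compresses differences. They were Ms4a2, Ms4a3, Ms4a4b, Ms4a4d, Ms4a5, Ms4a13, Ms4a15 and Ms4a18, and their small differences say little about genotype. Ms4a2, the beta chain of the high-affinity IgE receptor of mast cells, differed by 0.03 and Ms4a3, a gene of granulocyte and monocyte progenitors in the mouse, by 0.09. Ms4a4b, a mouse T-cell gene, differed by -0.04, and Ms4a4d by -0.05. Ms4a14 differed by 0.19, Ms4a10 by 0.15, Ms4a5 by 0.03 and Ms4a15 by -0.01. Ms4a13 and Ms4a18 differed by -0.14 and -0.06. Ms4a19 and Ms4a20 were not on the list and were added after their values were seen, at -0.10 and 0.03. Both were also dim, with wild-type means of 1.27 and 0.85.

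**Figure D3:**
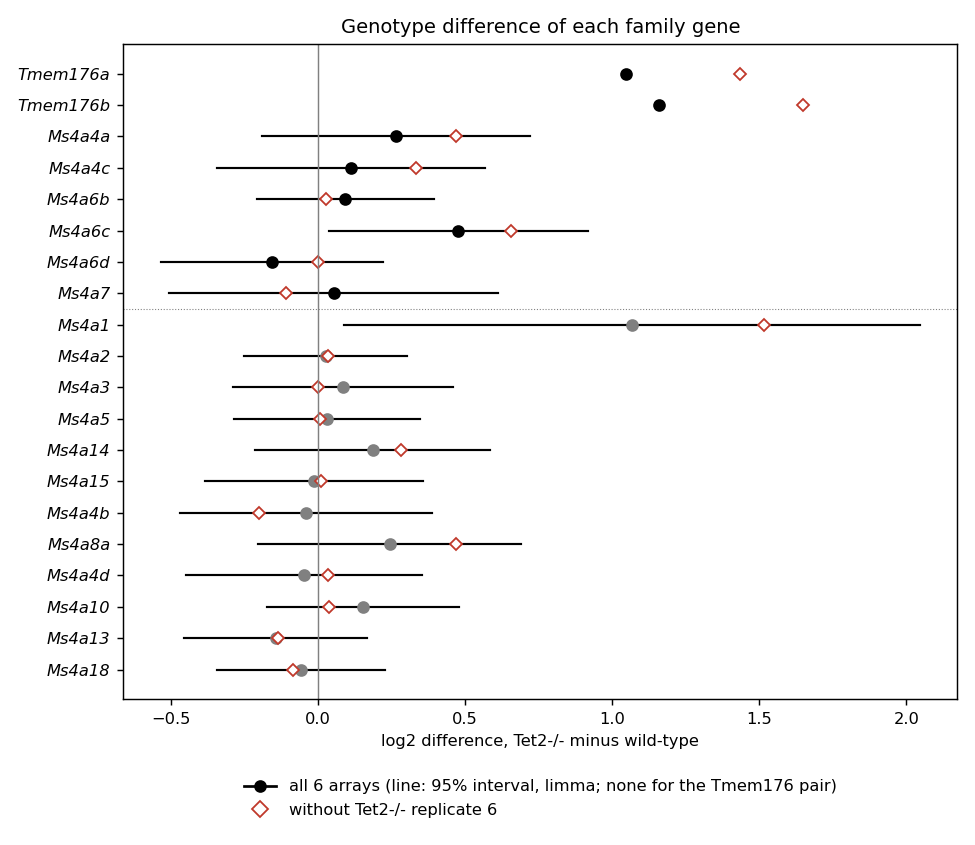
Log2 difference, Tet2-/- minus wild-type, of the 8 genes (above the dotted line) and of 12 other MS4A genes, with all arrays as filled points and without Tet2-/- replicate 6 as open diamonds; lines are limma 95% confidence intervals and are left out for the Tmem176 pair. Among the Ms4a genes only Ms4a6c (0.04 to 0.92) and Ms4a1 (0.09 to 2.04) have intervals that do not reach 0, and neither passed after adjustment over all probe sets.

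The reported partners of these proteins had no shared direction. Of 11 measured genes on that list, 0 passed limma's adjusted p of 0.05. There were 2 with an unadjusted p under 0.05, beside 3.61% of all probe sets, and the median difference was -0.03. Il1b, the cytokine released through the inflammasome, was at 3.65, 4.54 and 3.36 on the Tet2-/- arrays, against 3.43, 3.03 and 2.84 on the wild-type arrays, a difference of 0.75. Tnfrsf18, the receptor GITR, differed by -0.42 and Tyrobp, the adaptor DAP12, by -0.28. The partner of Ms4a4a, Clec7a (Dectin-1), differed by 0.01, and the partner of Ms4a6d, Vsig4, by -0.07. Nlrp3 and Casp1, components of the inflammasome, differed by 0.12 and -0.07. The receptors Trem2, Fcer1g and the oxidase chain Cybb differed by -0.12, -0.03 and 0.13. Fcer1a, the mast cell IgE receptor chain, lay below the array median on all 6 arrays.

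Genes of MHC class II presentation, the process in which the TMEM176 proteins take part in mouse dendritic cells, had a median difference of 0.26 and 8 of 8 positive differences. None passed limma's adjusted p of 0.05, and 2 had an unadjusted p under 0.05, as 3.61% of all probe sets did. In 4 of the 8 the Tet2-/- arrays lay wholly above the wild-type arrays, as for 3.28% of named probe sets. With groups by the genotype characteristic the median turned to -0.04. H2-DMb2, part of the chaperone that loads peptides, was at 4.18, 5.67 and 3.40 on the Tet2-/- arrays, against 2.85, 3.28 and 2.87 on the wild-type arrays. H2-Aa, a class II chain, was at 8.41, 8.42 and 7.82 on the Tet2-/- arrays, against 7.69, 7.46 and 7.58 on the wild-type arrays, and Ciita, the class II transactivator, differed by 0.35. As with the pair, replicates 4 and 5 were the highest of the 6 arrays for H2-Aa and H2-DMb2, and replicate 6 was just above the wild-type values.

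Alternative activation, the interleukin-4 type of macrophage programme in which Ms4a4a and Ms4a8a have been reported, went both ways. Of 12 measured genes, 6 were higher and 6 lower (median 0.08), and 0 passed limma's adjusted p of 0.05. An unadjusted p under 0.05 was found for 4 of the 12, beside 3.61% of all probe sets. Retnla, a secreted product of such cells, was at 5.70, 6.77 and 7.03 on the Tet2-/- arrays, against 5.26, 5.51 and 5.00 on the wild-type arrays, so here replicate 6 was the highest. Clec10a, a galactose-binding lectin, was at 2.39, 3.08 and 2.45 on the Tet2-/- arrays, against 3.33, 3.44 and 3.92 on the wild-type arrays, and Chil3, a chitinase-like protein, differed by 0.71.

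Markers of other macrophage states and of other cell types were read on the same arrays. In bulk RNA, a change in the number of cells of one type and a change in RNA per cell cannot be told apart. The resident large peritoneal macrophage markers had 8 of 8 positive differences and a median of 0.86. That median was 1.32 without Tet2-/- replicate 6 and 0.42 without replicate 5, and it turned to -0.08 with groups by the genotype characteristic. Their mean log2 level was 4.99 to 6.72 on the Tet2-/- arrays and 4.89 to 5.49 on the wild-type arrays. Centred on its mean over all 6 arrays, the list was at 0.78, 1.16 and -0.57 on Tet2-/- replicates 4, 5 and 6, against -0.07, -0.67 and -0.62 on the wild-type arrays, so that, unlike in the pair, Tet2-/- replicate 6 lay below wild-type replicate 4. Alox15, a lipoxygenase, was at 5.93, 6.91 and 3.74 on the Tet2-/- arrays, against 4.14, 3.10 and 3.10 on the wild-type arrays, and the coagulation factor gene F5 differed by 1.07. None of the 8 passed limma's adjusted p of 0.05 with all arrays, 4 had an unadjusted p under 0.05 (3.61% of all probe sets), and 2 (Icam2 and Alox15) passed without Tet2-/- replicate 6, when 0.0754% of all probe sets did. Their part in the values of the pair was not tested.

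The mean levels of the monocyte and B-cell lists were also highest on Tet2-/- replicates 4 and 5, though not those of every gene in them. So were, by smaller margins, the mean levels of the general macrophage, other MS4A and partner lists. The monocyte list, 7 of 7 positive with a median of 0.53 (0.80 without Tet2-/- replicate 6, 0.35 without replicate 5 and -0.13 with groups by the genotype characteristic), had a mean log2 level of 4.51 to 5.58 on the Tet2-/- arrays and 4.12 to 4.43 on the wild-type arrays. Among its genes Plac8 differed by 1.77, Ccr2, the monocyte chemokine receptor, by 1.38 and Cx3cr1, the fractalkine receptor, by 1.11, and 3 of 7 had an unadjusted p under 0.05. The B-cell list, 7 of 8 positive with a median of 0.44 (0.69 without Tet2-/- replicate 6, 0.20 without replicate 5 and 0.21 with groups by the genotype characteristic), ranged from 3.16 to 4.43 on the Tet2-/- arrays and from 3.05 to 3.36 on the wild-type arrays. For 3 genes whose products form the antigen receptor of B cells, the differences were 1.59 (Cd79a), 1.55 (Cd79b) and 0.95 (Ighm). Cd22, an inhibitory receptor of B cells, went the other way, at 5.50, 5.29 and 5.23 on the Tet2-/- arrays, against 6.21, 6.15 and 6.07 on the wild-type arrays. All its Tet2-/- values were below the wild-type values (4.08% of named probe sets), and its difference of -0.80 had the smallest p of the list (limma unadjusted p = 0.000208, adjusted p = 0.483). Cd79a, Cd79b and Cd22 were the 3 of 8 with an unadjusted p under 0.05, beside 3.61% of all probe sets, and Pax5 and Ebf1, transcription factors that define the B cell, lay below the array median on all 6 arrays. None of either list passed limma's adjusted p of 0.05 with all arrays. Without Tet2-/- replicate 6, Ccr2 and Cd79a did, as did 0.0754% of all probe sets. The part of these cells in the values of the pair, and of B cells in the value of Ms4a1, was not tested.

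Dendritic cell, T and NK cell, and granulocyte and mast cell markers were mostly below the array median, and the mean levels of these lists were not highest on Tet2-/- replicates 4 and 5. Of 10 dendritic cell markers, 6 (Flt3, Zbtb46, Xcr1, Clec9a, Kmo and Dpp4) lay below the array median on all 6 arrays, the mean log2 level was 2.36 to 2.51 on the Tet2-/- arrays and 2.32 to 2.45 on the wild-type arrays, and the median difference was 0.05. Ccr7, a chemokine receptor of mature dendritic cells, differed by 0.31, and Xcr1 and Batf3 each by -0.18. Of 8 T and NK cell markers, 6 (Cd3e, Cd3g, Cd4, Cd8a, Trac and Ncr1) were below the array median on all 6 arrays, with a mean of 2.02 to 2.31 on the Tet2-/- arrays and 1.97 to 2.21 on the wild-type arrays, and the differences of Cd4, Trac and Klrb1c were 0.23, -0.19 and 0.15. Of 11 granulocyte and mast cell markers, 8 (S100a9, Ly6g, Mpo, Prg2, Epx, Ccr3, Mcpt4 and Kit) were below it, with a mean of 2.52 to 2.66 on the Tet2-/- arrays and 2.57 to 2.71 on the wild-type arrays. S100a8, a calcium-binding protein of neutrophils and monocytes, was well above it, at 5.79, 6.42 and 7.19 on the Tet2-/- arrays, against 6.22, 6.43 and 6.23 on the wild-type arrays. Siglecf, a sialic acid receptor best known from eosinophils, was at 4.65, 3.58 and 4.12 on the Tet2-/- arrays, against 5.37, 5.58 and 5.02 on the wild-type arrays. Its difference was -1.21, and the Tet2-/- values were all lower, as for 4.08% of named probe sets. Mpo differed by 0.46 and Ly6g by 0.28. No gene of these 3 lists passed limma's adjusted p of 0.05. The 2 with an unadjusted p under 0.05 were Siglecf and Mpo, beside 3.61% of all probe sets. As a list, general macrophage markers were lowest on Tet2-/- replicate 6 and highest on Tet2-/- replicates 4 and 5. Centred on the list's mean over the 6 arrays, replicates 4 and 5 were at 0.21 and 0.35, against 0.17 on wild-type replicate 4. Csf1r, the receptor for macrophage colony-stimulating factor, was at 9.47, 9.87 and 8.61 on the Tet2-/- arrays, against 9.37, 8.75 and 8.80 on the wild-type arrays, and Adgre1 and Fcgr1 differed by 0.37 and -0.23. In that list 4 of 7 differences were positive (median 0.15), and 0 had an adjusted or unadjusted p under 0.05.

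**Figure D4:**
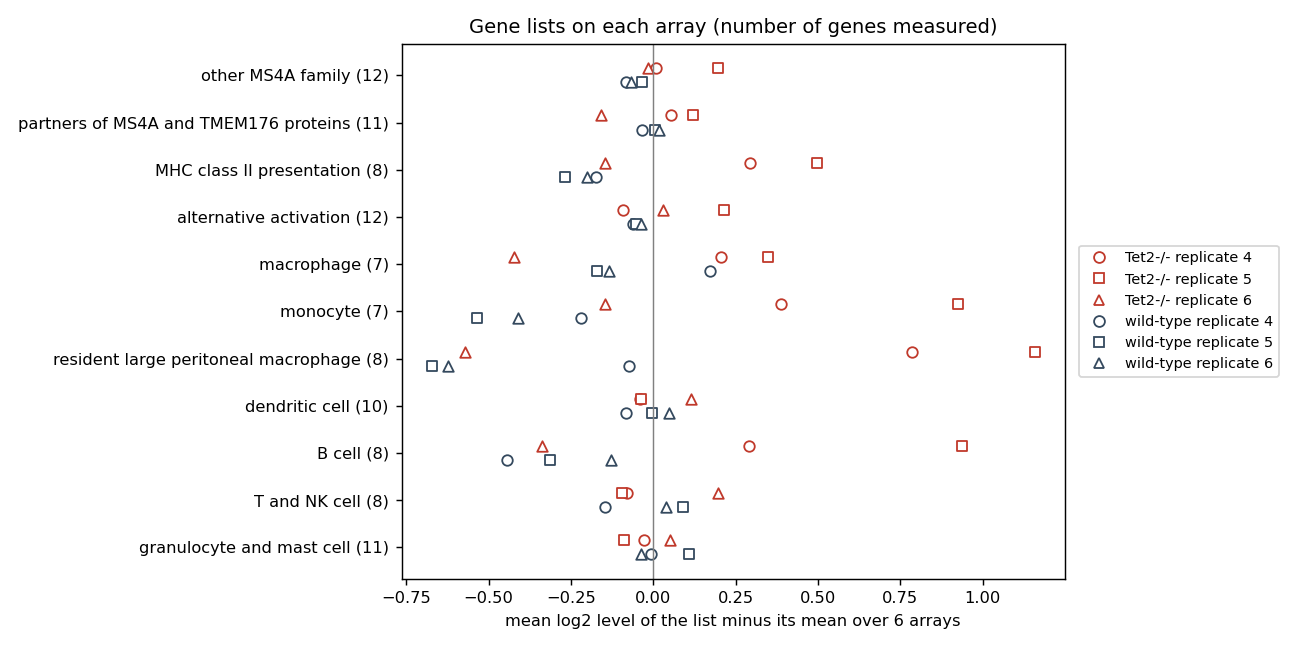
Mean log2 level of each gene list on each array, minus the mean of that list over the 6 arrays, with Tet2-/- arrays in red above and wild-type arrays in dark blue below, symbols for replicates 4, 5 and 6, and the number of measured genes in brackets. The means of the resident macrophage, monocyte, B-cell and class II lists are highest on Tet2-/- replicates 4 and 5, as the Tmem176 pair is. The same holds, by smaller margins, for the general macrophage, other MS4A and partner lists. The dendritic cell and T and NK cell lists are highest on Tet2-/- replicate 6, and the granulocyte list on wild-type replicate 5.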

How the data were processed

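RNA from 6 macrophage samples was measured on Affymetrix whole-transcript arrays. Per the submitters' processing notes, the authors made the deposited log2 expression values with the RMA method of affy 1.36.1. This method corrects background, equalises the distributions of arrays processed together and summarises probes, and it compresses differences near background. The deposited arrays still differed in median and interquartile range, and whether all 6 were normalized together is not stated. The log2 scale was read from the method and the value range. Scanner files and probe positions were not used here, so detection could not be judged, and 3 arrays per group limit the precision. Probe sets were named through the platform annotation (1 gene for 23185, several for 0, none for 2021) and RefSeq gene identifiers of GRCm38.p6. At most 2.42% of values were equal in any pair of arrays.

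Differences came from limma 3.58.1 in R 4.3.3 (lmFit, eBayes, two-sided) over all 25206 probe sets, with Benjamini-Hochberg adjustment. No set test was run. The test was tried on simulated data. The members, the gene lists and their tests were chosen with earlier results of these data known. Named were the members, the other MS4A genes, the 3 list genes with the largest absolute difference, dim defining markers, and the 3 nearest profiles for genes spanning over 1 log2 unit. Further list genes were named after their values were seen. Some listed genes are not reported here. Start-site windows were aligned globally, with free end gaps, in biopython 1.88.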

Additional observations from a re-analysis of the deposited data

How the results depend on the processing

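Under the grouping by genotype characteristic, the sign turned for Tmem176a (-0.187), Tmem176b (-0.113), Ms4a4a (-0.173), Ms4a6b (-0.133), Ms4a6c (-0.030) and Ms4a6d (0.270); that grouping exchanges 4 samples between the groups. With array weights Ms4a7 was at -0.081. The cause was not tested. When single arrays were left out, the differences ran from 0.838 to 1.433 for Tmem176a, 0.885 to 1.650 for Tmem176b, 0.113 to 0.468 for Ms4a4a, -0.053 to 0.332 for Ms4a4c, 0.027 to 0.137 for Ms4a6b, 0.352 to 0.657 for Ms4a6c, -0.295 to 0.000 for Ms4a6d and -0.173 to 0.252 for Ms4a7. No Ms4a member passed an adjusted p of 0.05 in limma under any setting run, and the smallest adjusted p of Ms4a6c was 0.267. Ms4a4c could not be tested among probe sets brighter than the median.

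Over all probe sets, 0 passed, against 2 with array weights and 0 to 19 without single arrays (19 without Tet2-/- replicate 6, 1 without wild-type replicate 4). At an adjusted p of 0.1 there were 0, and at an unadjusted p of 0.05 there were 910. The counts past the threshold were 0 to 1 for the monocyte list, 0 to 2 for the resident macrophage list and 0 to 1 for the B-cell list, each highest without Tet2-/- replicate 6. Groups did not overlap for 1707 named probe sets, and for 852 among those brighter than the median, where fewer were tested. With 1 array fewer there were 3231 to 5987, but smaller groups come apart more easily even without a genotype difference. With the replicate number as a block Ms4a6c stayed at 0.477 (limma adjusted p = 0.998) and 0 probe sets passed. Deviations of same-numbered arrays correlated at 0.15, -0.215 and 0.112 across probe sets, and not every array correlated best with its own. With so few arrays per group, these values cannot tell whether same-numbered arrays were handled together.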
